A study of Rattus norvegicus with 6 samples.

Results

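The genes described here are those of the motile cilium, taken by symbol from a count table of rat hippocampal RNA: every gene whose symbol starts with Dnah, Dnai, Cfap, Tekt, Rsph, Spag or Drc, and Foxj1. The rule found 67 of the table's 22601 genes, and it reads symbols only, with no cut on measured values. The rule and the settings were chosen with earlier results of these data known. The animals were male Sprague Dawley rats, and RNA of the ventral hippocampus was sequenced from 3 adult rats of 4 months and 3 aged rats of 22 months, drawn at random after a water maze test of spatial memory. No genetic change or drug treatment is named for either age, and each library came from a separate animal. The comparison asked how aged rats differ from adult rats, and it was made with and without adult replicate 1.

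Motile cilia are beating, hair-like projections. In the brain they cover the ependyma, the cell sheet that lines the ventricles, and beat to move cerebrospinal fluid, and the epithelium of the choroid plexus carries cilia too. Their core, the axoneme, is a ring of microtubule doublets around a central pair. Dynein motors form an outer and an inner row of arms on the doublets, radial spokes and the nexin link regulate them, and tektins and other proteins line the inside of the microtubules. Foxj1 is the transcription factor that switches on genes for motile cilia, together with factors of the RFX family, which bind a DNA motif called the X-box.

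Library totals ran from 12476758 to 15689921 counts, so that 1 count was worth 0.0637 to 0.0801 CPM (counts scaled to a common library size) before scaling by TMM. Adult replicate 1 stood apart through choroid plexus RNA. Of 25 choroid plexus markers, 22 were highest in that library, and Otx2, a transcription factor of that epithelium, had no count in any library. The 25 markers summed to 2611 CPM in adult replicate 1, to 267 and 275 CPM in the other adult rats and to 276 to 409 CPM in aged rats. Transthyretin (Ttr), the protein that the choroid plexus secretes, made up 2076 CPM in adult replicate 1, against 43.2 and 17.9 CPM in adult replicates 2 and 3 and 4.39, 68.0 and 41.7 CPM in aged replicates 1 to 3. All 14 markers of hippocampal neurons, glia and vessels had counts in every library. Among them Slc17a7, the vesicular glutamate transporter of excitatory neurons, stood at 681, 1092 and 1143 CPM in adult replicates 1 to 3 and at 1338, 762 and 981 CPM in aged replicates 1 to 3. In bulk tissue, a change in the number of ciliated cells and a change in RNA per cell cannot be told apart.

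The 67 genes were unequal in level. Per gene length, the highest were genes that cells without motile cilia also use. Cfap36 averaged 119.9 FPKM (counts scaled by gene length and library total) over the 6 libraries, Cfap20 55.7, Spag7 53.6 and Spag9, a scaffold of JNK signalling, 32.4. With the widely expressed genes set apart, the radial spoke gene Rsph9 was highest among genes of the axoneme at 13.1 FPKM. The nexin link gene Drc1 followed at 10.9 and the central apparatus gene Cfap69 at 8.98. Foxj1 averaged 4.24 FPKM and Tekt1 5.49 FPKM. Most dynein heavy chains lay far below these, with Dnah5 at 0.259 FPKM, Dnah7 at 0.135 FPKM and Dnah17 at 0.136 FPKM. Dnah9, an outer arm heavy chain, was the exception at 6.45 FPKM.

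**Figure D1:**
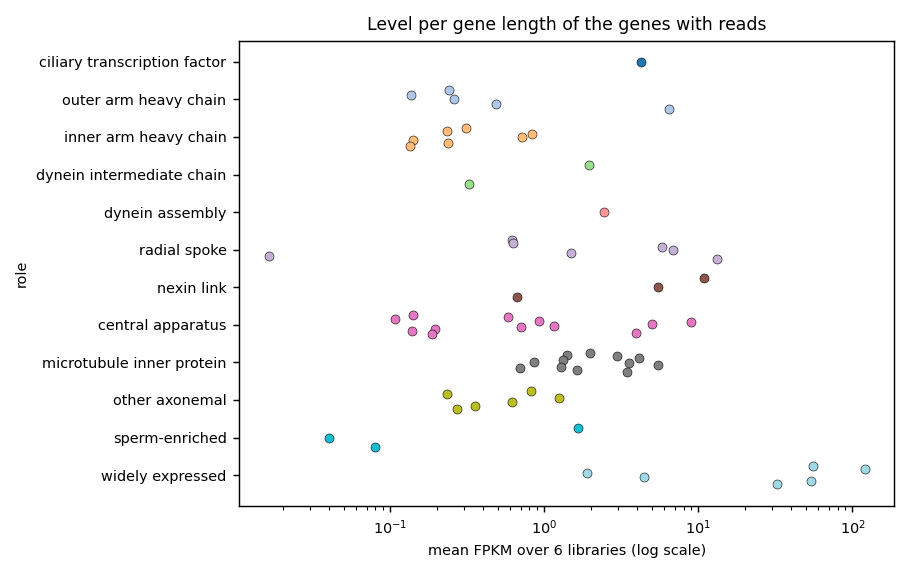
Mean FPKM over 6 libraries (log scale) of each gene with at least 1 count, by role, with a point per gene. Widely expressed genes reach 119.9 FPKM (Cfap36), and most heavy chains lie under 1 FPKM, with Dnah9 at 6.45.

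Of the 67 genes, 56 passed the filter on low counts and were tested, and 11 did not. Of the 11, Cfap58 and Spag11a had no count in any library. That allows at most 3 counts per library, or 0.191 to 0.240 CPM, for counting error only. Rsph4a, a radial spoke head gene, had 4 counts in all, Spag11bl 7, Spag4 11, Spag16 27, Spag6l 29, Cfap157 35, Cfap221 38, Cfap73 43 and Cfap47 56. Spag6 and Spag6l are close copies, so reads may have been split between them. Protein-coding genes overlap 15 of the 67 in the GRCr8 annotation, and reads of such a pair cannot be told apart without strand. The tested genes assigned to the axoneme or its assembly numbered 49, Foxj1 among them. Genes classed as widely expressed or of sperm were set apart, whether or not their proteins also serve in the axoneme. Dnah17, though known from sperm, was classed with the outer arm heavy chains and stayed among the 49. The other 7 were 6 widely expressed genes and Rsph6a, a radial spoke gene of sperm.

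Most of these 49 genes were high in the same rats, and those rats were of both ages. Each gene was set against its own mean over the 6 libraries on the log2(CPM + 0.5) scale, and the median over the 49 was taken per library. It was 0.63 in adult replicate 1, 0.33 in aged replicate 2 and 0.27 in aged replicate 3. It was -0.48 and -0.49 in adult replicates 2 and 3 and -0.47 in aged replicate 1. Adult replicate 1 was among the 3 highest libraries for 46 of the 49 genes, aged replicate 2 for 43, aged replicate 3 for 39 and aged replicate 1 for 4. Adult replicate 1 was the highest library for 30 of the 49 genes (61.2%), where it was the highest for 16.3% of all tested genes. Aged replicate 1 lay below both other aged rats for 42 of the 49, against 28.9% of all tested genes.

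Ciliary genes differed more between rats of an age than most genes did. The median standard deviation within an age was 0.657 log2 units over the 49 genes, 0.165 over the 6 widely expressed members and 0.227 over all 14588 tested genes. These sets were not matched for level, and low counts widen such a spread. The highest library exceeded the lowest by a median of 3.56 times among the 49, and by more than 3 times in 30 of them. At the wide end stood Spag17 (19.4 times), Cfap126 (15.4 times) and Dnah7 (15.1 times), whose lowest libraries held 2, 14 and 4 counts. At the narrow end stood Cfap53 (1.48 times), Dnah2 (1.56 times) and Rsph3 (1.60 times). The 6 widely expressed members ranged from 1.18 to 1.42 times.

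**Figure D2:**
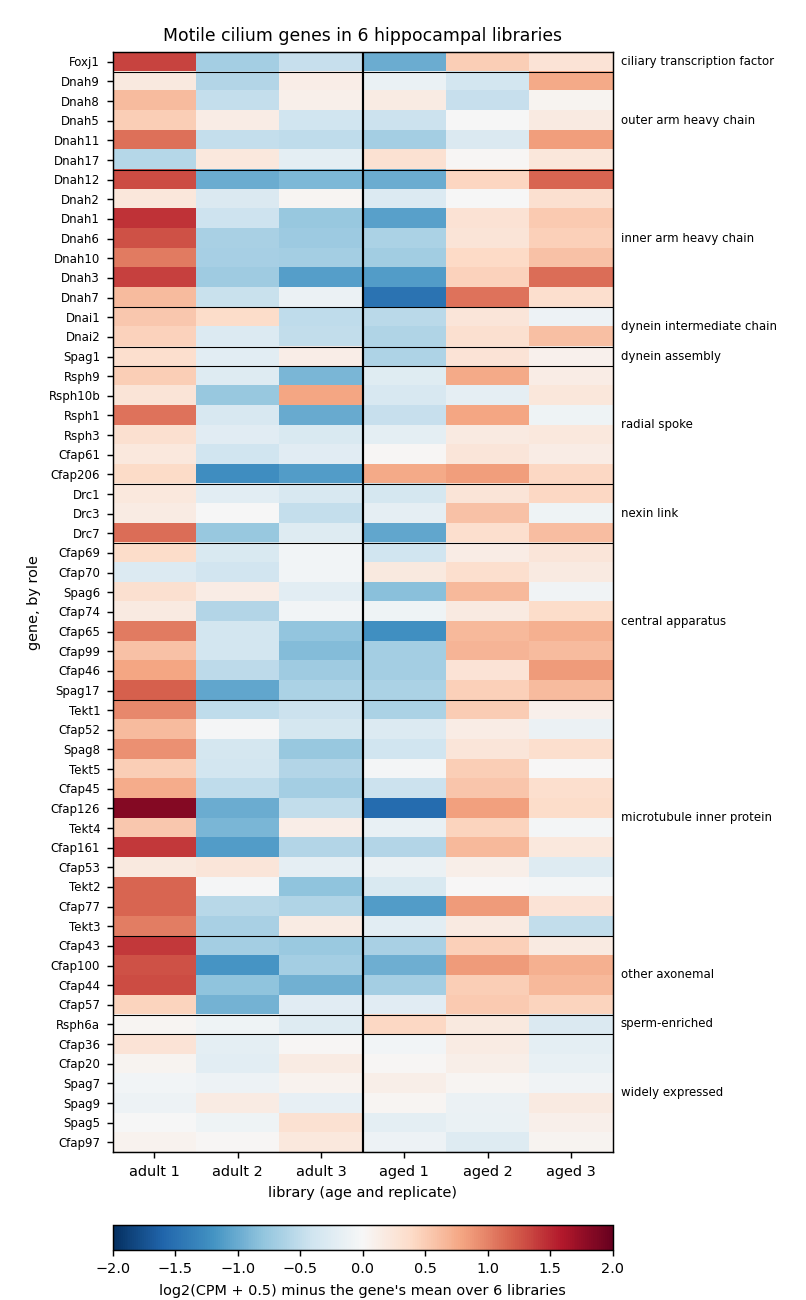
Each row is a tested gene, ordered by role, and each column a library. Colour gives log2(CPM + 0.5) minus the gene's mean over the 6 libraries. Most axonemal rows are red in adult replicate 1 and in aged replicates 2 and 3, and blue in adult replicates 2 and 3 and aged replicate 1, while widely expressed genes are pale throughout.

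Choroid plexus genes were set beside the ciliary genes in the same way. The median position of 15 tested choroid plexus genes was 1.36 in adult replicate 1, -0.26 in aged replicate 2 and -0.14 in aged replicate 3, and -0.23, -0.43 and -0.47 in adult replicates 2 and 3 and aged replicate 1. Each of these means includes adult replicate 1, so the other libraries fall below it. By summed level of the list, aged replicates 2 and 3 came next after adult replicate 1, at 369 and 409 CPM. The other 3 libraries had 267 to 276 CPM. Without Ttr the sums were 301 and 367 CPM against 224 to 272 CPM. Car12 alone made up 214 and 275 CPM of these, against 126 to 178 CPM. It had the same order across these libraries, so this ranking rests largely on 1 gene. Folr1, a folate receptor of that epithelium, stood at 15.6, 0.695 and 0.400 CPM in adult rats and at 0.266, 1.69 and 1.63 CPM in aged rats. Ependymal genes outside the set stood above their means in adult replicate 1 and aged replicates 2 and 3. Their median over 26 genes was 0.57, -0.48 and -0.22 in adult replicates 1 to 3 and -0.33, 0.68 and 0.0907 in aged replicates 1 to 3. Ccdc153, an ependymal gene chosen after its values were seen, stood at 14.3, 2.84 and 3.53 CPM in adult rats and at 2.53, 12.9 and 7.57 CPM in aged rats. Of the other choroid plexus genes, Car12 stood at 262, 126 and 161 CPM in the adult group and at 178, 214 and 275 CPM in the aged group, while Cab39l ranged from 42.7 to 54.4 CPM and Calml4 from 7.21 to 18.7 CPM. Liver genes, which also differ between these libraries, had a median position of -1.98 in adult replicate 1 and -1.73 in aged replicate 1, the former high and the latter low in ciliary genes. Neuronal markers did not share an order: Slc17a7, Camk2a and Wfs1 were lowest in adult replicate 1, Snap25 in adult replicate 2, Gad1 in adult replicate 3, and Neurod6 in aged replicate 2. Slc17a7 divided the libraries in reverse to most ciliary genes. It stood at 681, 762 and 981 CPM in adult replicate 1 and aged replicates 2 and 3. In adult replicates 2 and 3 and aged replicate 1 it stood at 1092, 1143 and 1338 CPM. Camk2a, Snap25, Gad1 and Neurod6 did not divide in this way. The part of choroid plexus, neuronal or liver RNA in the ciliary differences was not tested.

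**Figure D3:**
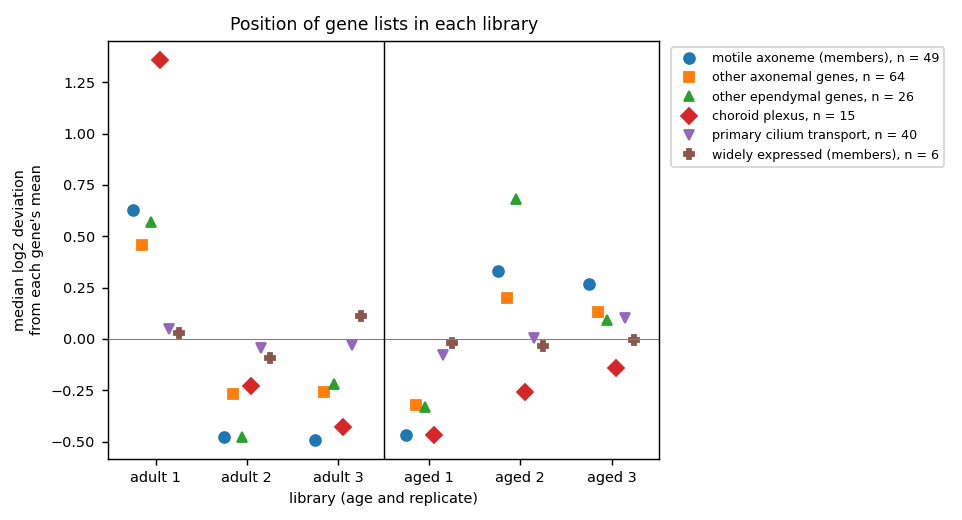
For each library, points give the median log2 deviation of a gene list from each gene's mean over 6 libraries. Motile axoneme genes and other ependymal genes lie above 0 in aged replicates 2 and 3 and in adult replicate 1. The choroid plexus list lies above 0 only in adult replicate 1 among these 6 libraries, at 1.36, and primary cilium genes stay near 0.

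Between the ages, no ciliary gene passed the test. The edgeR quasi-likelihood test called 0 of all 14588 tested genes (0%) at a Benjamini-Hochberg adjusted p under 0.05, hence 0 of the 56 members, with 1.000 as the lowest adjusted value of a member. DESeq2 called 31 genes and 0 members. Of the 56, 29 had higher and 27 lower values in aged rats, and the median log2 fold change (aged minus adult) was 0.0228, against -0.00219 over all tested genes. At an unadjusted p under 0.05 stood 2 members (3.57%), Cfap70 and Cfap206, both higher in aged rats, beside 503 or 3.45% of all tested genes (1.18% higher and 2.27% lower). The same 2 genes were the members whose adult and aged values did not overlap, 2 of 56 (3.57%) beside 7.56% of all tested genes (3.13% higher and 4.43% lower). Without regard to direction, these shares were close to or below the background. Among higher genes alone, 3.57% was above the 1.18% at that p and near the 3.13% without overlap, and it rests on 2 genes.

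Without adult replicate 1, the balance moved towards higher values in aged rats. That library lay above adult replicates 2 and 3 for 45 of the 49 axonemal genes, against 33.6% of all tested genes, so leaving it out raised most differences. Most members varied together across rats, so counts of members are not separate observations. The adult group was then replicates 2 and 3 only. Of the 56 members, 51 were then higher and 5 lower, with a median log2 fold change of 0.55, against 0.00729 over the 14827 genes then tested. Of all genes, 51.6% were then higher in aged rats, and 49.5% with 6 libraries. At an unadjusted p under 0.05 stood 7 members (12.5%), all higher, beside 4.14% of all genes tested (1.95% higher and 2.19% lower). They were Cfap206, Cfap70, Rsph9, Dnah12, Cfap44, Cfap100 and Spag17. By edgeR 1 gene (0.00674%) was called over all genes and 0 members, and the smallest adjusted p of a member was 0.503, for Cfap206. The 3 aged values lay above both remaining adult values in 10 members and below both in 0, beside 7.53% and 8.73% of all genes. The fit with the choroid plexus score as a covariate gave nearly the same median, 0.57, and 18 members at an unadjusted p under 0.05, all higher, beside 4.79% of all tested genes (2.39% higher and 2.41% lower). It called 1 gene (0.00685%) and 0 members. That score is highest in adult replicate 1. Its genes had a median position of 1.36 there and of -0.14 to -0.47 in the other libraries. The covariate fit therefore largely repeats leaving out adult replicate 1 and is not separate support. Of the 15 choroid plexus genes tested, 14 stood lower in aged rats with 6 libraries and 7 without adult replicate 1. With adult replicate 1 kept and aged replicate 1 left out the median was 0.25, and with adult replicate 2 left out it was -0.19, so its sign depended on which rats were used.

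**Figure D4:**
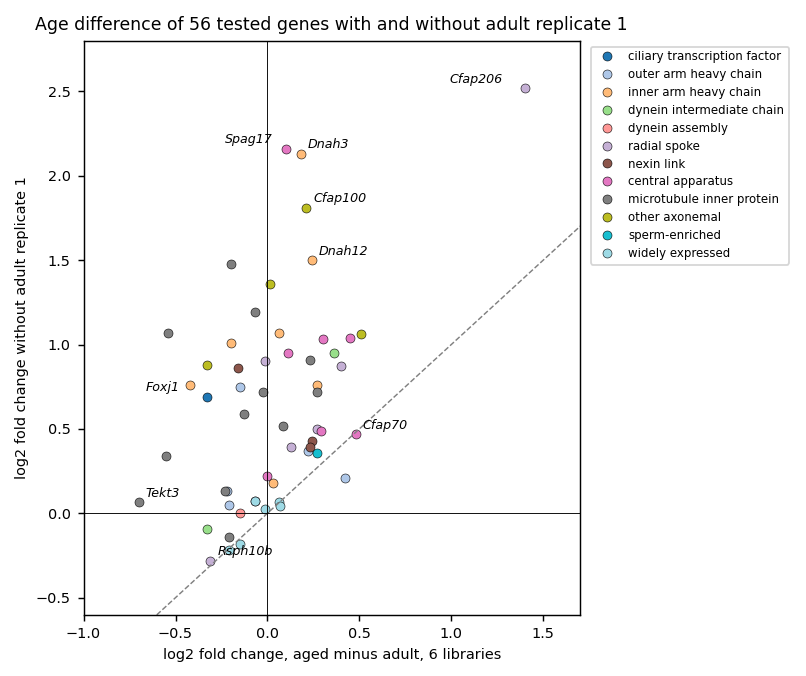
Log2 fold change (aged minus adult) of the 56 tested genes with 6 libraries (horizontal) and without adult replicate 1 (vertical), with a point per gene, coloured by role, and a dashed line of equal values. Without that library 50 of 56 genes have a higher value, and Cfap206 reaches 2.52, while Cfap70 stays near the line.

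Foxj1 showed the pattern of the set. It stood at 18.4, 4.17 and 4.93 CPM in adult replicates 1 to 3 and at 3.26, 10.0 and 8.51 CPM in aged replicates 1 to 3. The highest value was from an adult rat and the lowest from an aged rat, and the groups overlapped. The adult mean was 9.16 ± 7.99 CPM and the aged mean 7.27 ± 3.56 CPM (SD, n = 3). The fitted age difference was -0.33 ± 0.62 (SE) on the log2 scale, at an edgeR adjusted p of 1.000. Without adult replicate 1, the adult mean was 4.55 CPM and the log2 fold change 0.69 ± 0.47 (edgeR adjusted p = 1.000).

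Outer arm dynein heavy chains, motors of the ciliary beat, gave 2 higher and 3 lower values among 5 tested. Their median log2 fold change was -0.15, or 0.21 without adult replicate 1. Dnah9 stood at 96.4, 56.4 and 92.5 CPM in adult rats and at 76.9, 65.6 and 143 CPM in aged rats. It did not follow Foxj1: aged replicate 2, high for Foxj1, was the second lowest for Dnah9. Dnah17, a heavy chain known from sperm, stood at 1.23, 2.47 and 1.73 CPM in adult rats and at 2.66, 2.09 and 2.50 CPM in aged rats, and it was lowest in adult replicate 1. It overlaps Pgs1.

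Inner arm heavy chains, which shape the bend of the cilium, had 7 tested genes, 5 higher and 2 lower, and their median difference was 0.0652 on the log2 scale, or 1.01 without adult replicate 1. Their median position was 1.27 in adult replicate 1, 0.40 in aged replicate 2 and 0.52 in aged replicate 3, and below 0 in the other libraries. Dnah12 stood at 24.8, 4.68 and 5.00 CPM in adult rats and at 4.66, 13.4 and 22.5 CPM in the aged group. The log2 fold change was 0.24 ± 0.74 (edgeR adjusted p = 1.000), and 1.50 ± 0.59 without adult replicate 1, with an unadjusted p of 0.0350 and an adjusted p of 1.000. Aged replicate 1 lay below every adult rat for this gene, below adult replicate 2 only narrowly. Dnah3 stood at 3.76, 0.506 and 0.267 CPM in adult rats and at 0.266, 1.77 and 3.07 CPM in aged rats, and adult replicate 1 exceeded the mean of the other adult rats 9.73 times. Dnah1 stood at 10.4, 2.53 and 1.87 CPM in adult rats and at 1.40, 4.42 and 5.26 CPM in aged rats. Dnah2 ran level, between 8.34 and 13.0 CPM in all 6 rats.

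The intermediate chains Dnai1 and Dnai2, which anchor outer arm dynein, were low. Dnai1 stood at 6.69, 5.88 and 3.00 CPM in adult rats and at 2.93, 5.38 and 4.13 CPM in aged rats. Spag1, which helps to assemble dynein arms in the cytoplasm, stood at 14.0, 9.42 and 12.1 CPM in adult rats and at 6.99, 13.3 and 11.7 CPM in aged rats. For both genes aged replicate 1 was the lowest library and adult replicate 1 the highest, and the ages overlapped.

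Radial spokes carry signals from the central pair to the dynein arms, and Cfap206, a protein at the spoke base, was the member with the largest age difference. It stood at 2.80, 0.569 and 0.666 CPM in adult rats (41, 9 and 10 counts) and at 3.79, 4.02 and 2.88 CPM in aged rats (57, 50 and 46 counts). No aged rat lay below an adult rat, although aged replicate 3 exceeded adult replicate 1 only narrowly. The means were 1.35 ± 1.26 CPM and 3.56 ± 0.603 CPM (SD, n = 3), and the log2 fold change was 1.40 ± 0.60, with an unadjusted p of 0.0467 and an adjusted p of 1.000 by edgeR. Without adult replicate 1 the log2 fold change was 2.52 ± 0.43, a 5.74-fold difference in the fit, with an adjusted p of 0.503. Over 18 other settings the adjusted p ran from 0.503 to 1.000.

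Cfap206 departed from the other ciliary genes in aged replicate 1. That rat was low for Foxj1 (3.26 CPM), Dnah12 and most of the set, and it held the second highest Cfap206 value of the 6. No protein-coding gene overlaps Cfap206 in the GRCr8 annotation. Its promoter is shown because the gene has the largest age difference of the set. It is the 300 bases from 250 before to 50 after the RefSeq start site (GRCr8, chr5:54095334-54095633, minus strand), with the first transcribed base in capitals.
Cfap206: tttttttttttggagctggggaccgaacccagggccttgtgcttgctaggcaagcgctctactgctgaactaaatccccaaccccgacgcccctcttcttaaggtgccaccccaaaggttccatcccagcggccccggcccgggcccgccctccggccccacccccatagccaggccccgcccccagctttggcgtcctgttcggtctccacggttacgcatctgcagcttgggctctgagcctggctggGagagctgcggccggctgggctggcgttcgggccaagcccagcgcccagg

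The other radial spoke genes differed in pattern. Rsph9, of the spoke head, stood at 28.5, 16.6 and 10.4 CPM in adult rats and at 16.9, 34.4 and 22.3 CPM in the aged group. The log2 fold change was 0.40 ± 0.38 (edgeR adjusted p = 1.000), and 0.87 ± 0.34 without adult replicate 1, at an unadjusted p of 0.0368 and an adjusted p of 1.000. Rsph1 stood at 11.3, 3.98 and 2.27 CPM in adult rats and at 3.53, 9.16 and 4.76 CPM in aged rats. Rsph10b behaved differently, with its highest value, 47.3 CPM, in adult replicate 3 and its lowest, 15.9 CPM, in adult replicate 2. Of 6 radial spoke genes tested, 4 were higher and 2 lower in aged rats, and with adult replicate 1 left out 5 were higher and 1 lower.

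The nexin link ties neighbouring doublets together. Drc1 stood at 30.3, 22.5 and 20.7 CPM in adult rats and at 20.4, 31.2 and 34.9 CPM in the aged group, and the difference was 0.24 ± 0.23 on the log2 scale (edgeR adjusted p = 1.000). Drc3, which overlaps Tom1l2, ranged from 15.5 to 33.1 CPM. Of the 3 link genes, Drc7 had the widest range, from 4.10 CPM in adult replicate 1 to 0.532 CPM in aged replicate 1.

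The central apparatus, the paired microtubules and their projections, included Cfap70, which along with Cfap206 had ages that did not overlap. Cfap70 stood at 17.3, 16.1 and 20.2 CPM in adult rats and at 24.1, 26.6 and 24.0 CPM in aged rats. Every aged rat lay above every adult rat, and adult replicate 1 lay between the other adult rats. The means were 17.8 ± 2.13 CPM and 24.9 ± 1.46 CPM (SD, n = 3). The log2 fold change was 0.48 ± 0.15, with an unadjusted p of 0.0118 and an adjusted p of 1.000 by edgeR, and 0.47 ± 0.18 without adult replicate 1. In all 18 other settings the unadjusted p was under 0.05, with adjusted p from 0.678 (DESeq2) to 1.00. Cfap70 did not track Foxj1: adult replicate 1 held the most Foxj1 (18.4 CPM) and the second lowest Cfap70 value. Its promoter (GRCr8, chr15:3901483-3901782, plus strand) is shown in the same way, with the first transcribed base in capitals.
Cfap70: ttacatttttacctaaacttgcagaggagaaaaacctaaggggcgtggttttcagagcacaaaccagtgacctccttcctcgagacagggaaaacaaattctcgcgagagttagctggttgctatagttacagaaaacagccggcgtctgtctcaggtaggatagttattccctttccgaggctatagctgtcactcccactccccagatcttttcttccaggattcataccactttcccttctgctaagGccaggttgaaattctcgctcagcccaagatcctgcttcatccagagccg

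Other central apparatus genes differed in pattern. Spag6 stood at 9.83, 8.66 and 6.60 CPM in adult rats and at 4.13, 12.5 and 7.32 CPM in aged rats. Spag17 stood at 2.46, 0.126 and 0.333 CPM in adult rats (36, 2 and 5 counts) and at 0.333, 1.29 and 1.50 CPM in aged rats (5, 16 and 24 counts), so that its low values rest on few counts. Its log2 fold change was 0.10 ± 0.97, and 2.16 ± 0.87 without adult replicate 1 (edgeR unadjusted p = 0.0388, adjusted p = 1.000). Spag17 overlaps Wdr3. Cfap69 stood at 58.7, 36.6 and 43.4 CPM in adult rats and at 34.1, 50.1 and 53.9 CPM in aged rats, with an age difference of -0.00505 on the log2 scale. All 8 central apparatus genes tested had higher values in aged rats without adult replicate 1, and 6 of 8 with it.

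Cfap43, Cfap44, Cfap57 and Cfap100 belong to structures beside the inner arms. Cfap44 stood at 9.90, 1.90 and 1.67 CPM in adult rats and at 2.13, 5.38 and 6.07 CPM in the aged group. The log2 fold change was 0.0144 ± 0.71 (edgeR adjusted p = 1.000), and 1.36 ± 0.51 without adult replicate 1 (unadjusted p = 0.0304, adjusted p = 1.000). Cfap100 stood at 5.05, 0.506 and 0.933 CPM in adult rats and at 0.666, 3.61 and 3.25 CPM in aged rats. Cfap43 stood at 16.9, 3.54 and 3.40 CPM in adult rats and at 3.66, 8.51 and 6.82 CPM in aged rats. Cfap57 stood at 2.94, 0.822 and 1.67 CPM in adult rats and at 1.66, 3.13 and 2.94 CPM in aged rats. Adult replicate 1 was the highest library for Cfap43, Cfap44 and Cfap100, and the ages overlapped for all 4 genes.

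**Figure D5:**
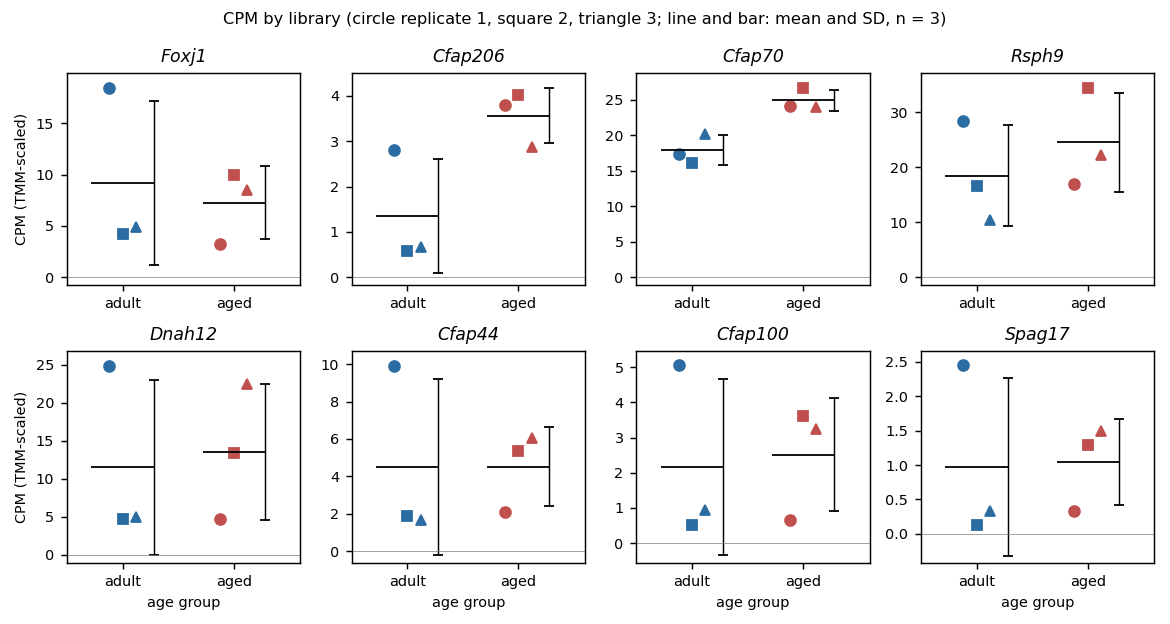
TMM-scaled CPM of Foxj1 and of the 7 genes at an unadjusted p under 0.05 with or without adult replicate 1, by library. Circles, squares and triangles are replicates 1, 2 and 3, lines are group means and bars SD (n = 3), and some bars reach below 0. Only Cfap206 and Cfap70 among the 8 have ages that do not overlap. In Foxj1, Dnah12, Cfap44, Cfap100 and Spag17 the adult circle is the highest point.

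Proteins inside the microtubules, the tektins among them, stood mostly lower in aged rats: of 12 tested, 3 were higher and 9 lower, at a median difference of -0.16 on the log2 scale. Without adult replicate 1, 11 were higher and 1 lower, with a median of 0.65. Tekt1 stood at 13.9, 4.68 and 5.00 CPM in adult rats and at 4.26, 9.96 and 7.45 CPM in aged rats. Tekt3 stood at 2.73, 0.506 and 1.27 CPM in adult rats and at 0.865, 1.29 and 0.626 CPM in the aged group, and the log2 fold change was -0.70 ± 0.63, the lowest of the 56. Cfap126, also called Flattop, stood at 14.3, 1.58 and 2.47 CPM in adult rats and at 0.932, 6.83 and 4.88 CPM in aged rats. Cfap161 stood at 4.99, 0.442 and 0.866 CPM in adult rats and at 0.865, 2.73 and 1.88 CPM in aged rats. Adult replicate 1 exceeded the mean of the other adult rats 7.09 times for Cfap126 and 7.62 times for Cfap161, while Cfap53 ran between 2.82 and 4.17 CPM in all 6 rats.

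Promoters were searched on both strands because most of these genes were high in the same rats. RefSeq start sites (GRCr8) were matched for 54 of the 67 genes, with 94 windows of 300 bases. The full X-box was in the windows of 0 of the 54 genes and of 0.488% of all 27457 genes. A shorter X-box motif, GTTGCCAT, which can overlap the start of the strict form, was in 4 of the 54 (Tekt1, Spag8, Cfap161 and Dnah2). It was in 1.41% of all genes, or 1.30% of all 33469 windows. The forkhead core TGTTTAC, the letters that Foxj1 and many related factors share, was in 3 of the 54 (Cfap20, Cfap43 and Tekt3) and in 4.13% of all genes. The stretches around the shorter X-box are shown because they are the matches among these genes, each on its gene's strand, with the motif or its reverse complement in capitals.
Tekt1: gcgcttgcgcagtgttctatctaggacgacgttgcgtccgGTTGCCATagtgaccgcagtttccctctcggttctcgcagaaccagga
Spag8: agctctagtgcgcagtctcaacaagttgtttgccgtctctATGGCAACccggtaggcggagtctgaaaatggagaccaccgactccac
Cfap161: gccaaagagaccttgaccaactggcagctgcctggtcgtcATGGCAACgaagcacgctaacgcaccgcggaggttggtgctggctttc
Dnah2: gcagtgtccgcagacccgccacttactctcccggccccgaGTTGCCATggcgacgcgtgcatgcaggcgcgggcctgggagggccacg
In GRCr8 these lie at chr10:57479113-57479200 (Tekt1), chr5:62699624-62699711 (Spag8), chr1:147177833-147177920 (Cfap161) and chr10:54766024-54766111 (Dnah2), all on the minus strand. Counted from the start site, the motif runs from -39 to -32 in Tekt1, from -7 to 1 in Spag8, from -59 to -52 in Cfap161 and from -45 to -38 in Dnah2. The genes with the match were not alike in expression: Cfap161 ranged 11.3 times between libraries, Spag8 3.56 times, Tekt1 3.27 times and Dnah2 1.56 times.

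The widely expressed members and Rsph6a were level between the ages. Of the 6 widely expressed genes, 2 were higher and 4 lower in aged rats, with log2 fold changes from -0.21 to 0.0687. Cfap36 stood at 222, 159.7 and 187 CPM in adult rats and at 176, 205 and 161 CPM in aged rats. Cfap97, which overlaps Snx25, stood at 11.1, 10.7 and 12.3 CPM in adult rats and at 9.72, 8.68 and 11.0 CPM in aged rats. Rsph6a, known from sperm, stood at 3.96, 3.60 and 3.13 CPM in adult rats and at 5.32, 4.50 and 3.07 CPM in aged rats. Of 12 sperm markers, 6 had no count in any library, the protamines Prm1 and Prm2 among them, and the 12 summed to between 3.94 and 7.51 CPM.

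Further axonemal genes outside the name rule, many under older symbols, were examined from a separate list. Of 92 listed, 74 were in the table and 64 were tested, 32 higher and 32 lower in aged rats, with 0 called. Without adult replicate 1, 55 of 65 were higher, at a median difference of 0.37 on the log2 scale, with 3 at an unadjusted p under 0.05, all higher, beside 4.14% of all tested genes (1.95% higher). Ttc25, named for that p, stood at 4.44, 1.07 and 1.13 CPM in adult rats and at 1.86, 3.61 and 4.01 CPM in aged rats, so that the ages overlapped through adult replicate 1. The best expressed genes of the list ran level, such as Ccdc39, a ruler of axonemal spacing, at 26.7 to 36.8 CPM, Ccdc65 at 39.9 to 49.5 CPM and Nme7 at 19.4 to 30.8 CPM. All 3 overlap other genes in GRCr8. Dnal4, a dynein light chain, ranged from 44.8 to 74.2 CPM.

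Ependymal genes that are not named for the axoneme had 12 higher and 14 lower values among 26 tested, with 0 called. Without adult replicate 1, 22 of 27 were higher, with a median of 0.70. At an unadjusted p under 0.05, 6 stood higher and 2 lower, beside 1.95% higher and 2.19% lower of all tested genes. The 2 lower were Acta2 (log2 fold change -0.96) and Rarres2 (-0.72). Cdhr4, among the 6 higher, stood at 30.6, 4.24 and 6.06 CPM in adult rats and at 4.66, 19.7 and 23.5 CPM in aged rats, but it overlaps Ip6k1. The most abundant genes of this list are not confined to ependyma. Nnat, which neurons express and which overlaps Blcap, stood at 2219, 976 and 496 CPM in adult rats and at 893, 2066 and 961 CPM in aged rats, and made up most of the list's sum. Without Nnat the list summed to 337, 253 and 255 CPM in adult rats and to 204, 318 and 249.7 CPM in aged rats. Tppp3 stood at 35.0, 31.4 and 27.9 CPM in adult rats and at 22.1, 48.6 and 18.4 CPM in aged rats. Cd24 ranged from 62.6 to 90.3 CPM and Vwa3a from 18.9 to 46.9 CPM, and for Vwa3a the lowest library was adult replicate 1.

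Factors that direct the formation of many cilia ranged from level to near absent, and some varied between rats. Of 17 tested, 9 were higher and 8 lower, with 0 called and 0 at an unadjusted p under 0.05. With adult replicate 1 left out, 11 were higher and 6 lower, and 1 stood at an unadjusted p under 0.05, Ankrd66. Ankrd66 stood at 5.19, 1.07 and 1.13 CPM in adult rats and at 1.66, 4.10 and 2.50 CPM in aged rats. Ccdc78 ranged 4.93 times between libraries and Gmnc 5.13 times, and these 3 were named after their values were seen. Rfx3, a partner of Foxj1, stood at 83.1, 71.7 and 118 CPM in adult rats and at 84.2, 73.3 and 99.0 CPM in aged rats. E2f4 ran between 32.0 and 37.6 CPM and Tfdp1 between 55.6 and 66.6 CPM. Ift57, a gene of transport in cilia kept in the same list, ran between 51.1 and 64.1 CPM. Mcidas, a switch for multiciliated cells in development, had no count in 5 libraries and 0.188 CPM in aged replicate 3. Genes of transport in primary cilia, the single sensory cilia of neurons and glia, had 25 higher and 15 lower values among 40 tested, with 0 called and 0 at an unadjusted p under 0.05. Their median log2 fold change was 0.0299, or 0.0614 without adult replicate 1, where motile axoneme genes reached 0.72. Their standard deviation within an age was 0.195 log2 units, below the 0.227 of all tested genes.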

How the data were processed

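Libraries were compared as 3 adult against 3 aged rats, grouped by the age in the labels. The authors deposited raw counts per gene symbol and FPKM values for the same 6 libraries. FPKM followed from the counts: the ratio of FPKM to count per library total gave 1 length per gene, to within 1e-06, in 17803 of 17803 genes compared. The genome build was Rnor_6.0, per the submitters' processing notes, and for aligner, counting program, annotation and strand the answer is not given in the sources used here.

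Counts were filtered with filterByExpr, scaled by TMM and tested with edgeR 4.0.16 (glmQLFit and glmQLFTest, R 4.3.3) with age as the only term, two-sided, on the whole table, with Benjamini-Hochberg adjustment and calls at an adjusted p under 0.05. Standard errors were derived from the F statistic. CPM values are TMM-scaled, except where given of the library total. Other settings were RLE, upper-quartile and library total scaling, no filter and 1 CPM in 3 libraries, DESeq2 1.42.0, limma-voom and limma 3.58.1 on log2(FPKM + 1) and log2(FPKM + 0.1), the replicate number as a block, a choroid plexus score as covariate, and leaving out each library. The edgeR fit was tested on simulated data.

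The members, lists and settings were chosen with earlier results of these data known. Named members were Foxj1, those at an unadjusted p under 0.05 with or without adult replicate 1, those of highest FPKM or smallest p in each role, those with the largest ratio of adult replicate 1 to the other adult rats, and the most abundant genes of 4 lists. Genes outside that rule were chosen after their values were seen. Among them are Dnah2, Rsph1, Rsph10b, Drc7, Cfap53, Slc17a7, Folr1 and those given by a range, a rank or an overlap. Roles are textbook assignments. Gene names, overlaps and promoters come from RefSeq GRCr8, a build other than that of the files, so no coordinate of the counted genes is given. Figures were drawn with matplotlib 3.10.9.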

Additional observations from a re-analysis of the deposited data

How the results depend on the processing

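No member was called under any of the 18 other settings. Genes called over the whole table, 0 in the fit reported, numbered 31 with DESeq2, 2 with limma on log2(FPKM + 1), 1 with the choroid plexus score as covariate, and from 0 to 1 when single libraries were left out. Members at an unadjusted p under 0.05, 2 in the fit reported, numbered 18 with that covariate and from 1 to 7 without single libraries, with 7 without adult replicate 1 and 1 without adult replicate 3 or any aged replicate. Without adult replicate 2, 1 member stood higher and 1 lower in aged rats at that p, and under every other setting all such members were higher. The median log2 fold change of the members ran from -0.19 without adult replicate 2 to 0.55 without adult replicate 1, and was 0.57 with the covariate. Cfap206 (0.53 to 2.52) and Cfap70 (0.41 to 0.59) kept their direction under every setting, as did Rsph9 (0.093 to 0.93). The value of 0.53 for Cfap206 is from log2(FPKM + 1), a scale that understates changes of low genes. Foxj1 reversed to 0.73 with the covariate, to 0.69 without adult replicate 1 and to 0.036 without aged replicate 1, and its lowest value without a library was -0.68. Without single libraries Cfap100 ran from -0.26 to 1.81, Cfap44 from -0.37 to 1.36, Dnah12 from -0.35 to 1.50 and Spag17 from -0.42 to 2.16. Reversed values of Cfap100 were -0.26, -0.13, -0.12 and -0.025, of Cfap44 -0.35, -0.37, -0.11 and -0.26, and of Spag17 -0.42, -0.29, -0.053 and -0.28, each without adult replicates 2 and 3 and aged replicates 2 and 3 in turn. Those of Dnah12 were -0.14, -0.11 and -0.35 without adult replicates 2 and 3 and aged replicate 3. The cause was not tested. The labels share replicate numbers between the ages, but same-numbered libraries did not deviate together (correlations of -0.015, -0.057 and 0.087), and adult replicate 1 correlated best with aged replicate 2 (0.118). With the replicate block 0 members were called, 2 stood at an unadjusted p under 0.05 and the median was 0.16. Counts limit the low genes: Spag17 had 2 counts in adult replicate 2.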
